A study of Homo sapiens with 32 samples.

Results

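The chemokine receptor genes CXCR4, CCR1, CCR2, CCR7, CX3CR1 and CXCR3 were described across 32 human acute myeloid leukaemia (AML) cell lines. Their 12 probe sets were those whose only annotated symbol was 1 of these 6 genes, and each gene was represented by the probe set with the highest mean level over the 32 lines, giving 6 of the 19775 genes with such a probe set. All 6 were among the 15455 genes that reached the median signal of the arrays in at least 3 units and entered the tests. The series profiled untreated lines in a study of PIM kinase inhibitors, with total RNA from 1 HG-U133 Plus 2 array per line; response to the inhibitors was not used here. In 21 of the lines the medium was RPMI 1640 with serum and no added cytokine, and in 4 lines (SH-2, SHI-1, OCI-M2 and OCI-M1) it was IMDM with serum. KG-1A was counted among the 21 from an unclear entry in the growth protocol; its unit also holds KG-1, whose medium is given. Added cytokines were human IL-3 (5 ng/ml in RPMI 1640) for F-36P and either SCF or GM-CSF (in alpha-MEM, the labels not saying which) for OCI-AML2, OCI-AML3 and OCI-AML5. No medium was found for MOLM-13, MOLM-16 and MV4-11. HL-60 and PLB-985 are of 1 origin, as are KG-1 and KG-1A, so each pair was averaged and the 32 lines gave 30 units.

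Chemokine receptors are G protein-coupled receptors that steer leukocytes along gradients of small secreted proteins, mostly through Gi proteins, and are then desensitised by receptor kinases and arrestins. CXCR4 binds CXCL12 and retains haematopoietic and leukaemic cells in the bone marrow. The kinase PIM1 is known to phosphorylate CXCR4 and to promote its presence at the cell surface. CCR1 and CCR2 guide monocytes to inflammatory chemokines such as CCL5 and CCL2, and CX3CR1 binds fractalkine on patrolling monocytes. CCR7 leads dendritic cells and lymphocytes to lymph nodes, and CXCR3 is a receptor of activated T cells. An array of RNA says nothing of receptor at the cell surface.

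The promoters of the 3 receptors whose levels moved together are shown first, because they have unlike base composition. RefSeq's table for GRCh38.p14 held a promoter for 5 of the 6 genes, and the 250 bases before the most upstream start listed are given 5′ to 3′ on the gene's strand, CXCR4 at chr2:136118150-136118399 (minus strand), CCR1 at chr3:46208314-46208563 (minus) and CCR2 at chr3:46353861-46354110 (plus). Capitals mark the TATA box TATAAA and the ETS motif AGGAAGT, read on either strand; an NRF1 motif and a joint ETS and IRF motif were also searched and are not shown.
CXCR4: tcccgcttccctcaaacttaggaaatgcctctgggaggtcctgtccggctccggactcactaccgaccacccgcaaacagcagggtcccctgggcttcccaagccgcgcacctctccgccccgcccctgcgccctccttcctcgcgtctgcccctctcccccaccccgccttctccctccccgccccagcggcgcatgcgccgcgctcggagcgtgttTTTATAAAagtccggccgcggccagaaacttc
CCR1: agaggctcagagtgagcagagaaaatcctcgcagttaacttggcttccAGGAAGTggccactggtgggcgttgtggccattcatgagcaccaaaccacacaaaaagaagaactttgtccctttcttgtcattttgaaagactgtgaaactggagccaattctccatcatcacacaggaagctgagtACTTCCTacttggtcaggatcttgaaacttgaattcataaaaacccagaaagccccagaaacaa
CCR2: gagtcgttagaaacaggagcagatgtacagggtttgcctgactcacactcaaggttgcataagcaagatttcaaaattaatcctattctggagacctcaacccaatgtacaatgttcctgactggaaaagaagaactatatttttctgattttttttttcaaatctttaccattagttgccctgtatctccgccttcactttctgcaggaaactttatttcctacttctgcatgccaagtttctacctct
The CXCR4 window was 68.0% G and C and held 24 CpG, above the medians of 58.0% and 11 over 35116 promoters. It had TATAAA at bases -30 to -25 from the start, overlapping a match on the other strand at -32 to -27, and no ETS motif. The CCR1 window was 45.2% G and C with 2 CpG and held the ETS motif at -202 to -196 and, on the other strand, at -64 to -58. The CCR2 window was 38.8% G and C with 2 CpG and had neither motif. The ETS motif was also in the windows of 2 receptors not shown. It lay at -12 to -6 in CX3CR1 and, on the other strand, at -29 to -23 in CXCR3. TATAAA was found in 10.7% of the 35116 windows and AGGAAGT in 7.01%. The genes lie on chromosome 2 (CXCR4), 3 (CCR1, CCR2 and CX3CR1), 17 (CCR7) and X (CXCR3).

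The level of each gene is log2(signal + 16), and 6.73 is the median over all probe sets and arrays, used here as the mark of a low level. CXCR4 was the receptor with the widest range of the 6 (probe set 217028_at). Its level was lowest in KMOE-2 at 4.12, had a median of 11.63 and was highest in OCI-AML2 at 14.47 (mean 10.79, SD 2.95, n = 30 units), a 1300-fold range on this scale. It exceeded 6.73 in 26 of the 30 units, and the 4 below were KMOE-2, HNT-34 at 5.40, F-36P at 5.54 and MOLM-16 at 6.42. Behind OCI-AML2 came OCI-AML3 at 14.31, PL-21 at 14.25, SH-2 at 13.66 and MOLM-13 at 13.65. Its SD was larger than that of 99.6% of the genes tested, whose median SD was 0.801.

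**Figure D1:**
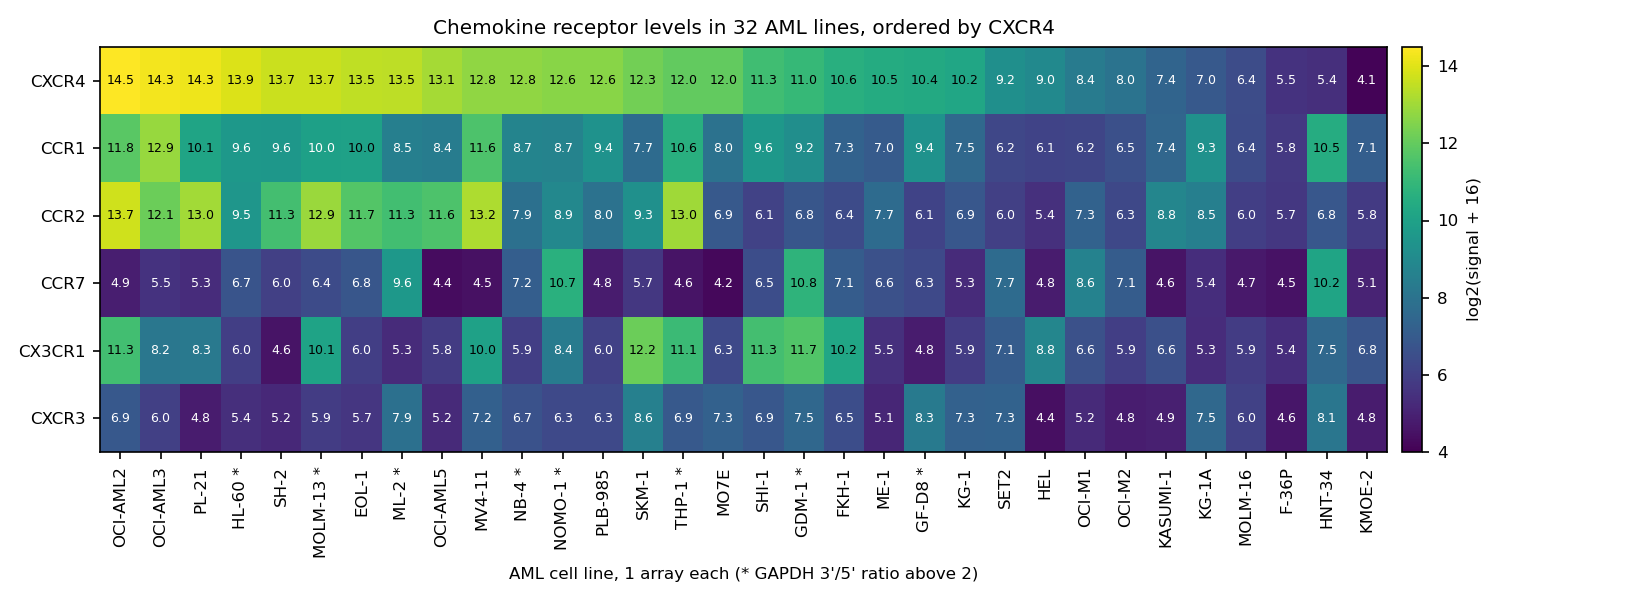
Levels of the 6 receptors, as log2(signal + 16), in each of the 32 AML lines (columns, 1 array each, ordered by CXCR4; an asterisk marks a GAPDH ratio, 3′ over 5′ probe set, above 2). CXCR4 falls from 14.47 in OCI-AML2 to 4.12 in KMOE-2, while CCR2 is above 11 in 10 lines that all lie among the higher CXCR4 levels.

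CCR2, the receptor for CCL2, fell into a low and a high set on the probe set used, 206978_at. Its level was 5.45 in HEL, 7.79 at the median and 13.75 in OCI-AML2 (mean 8.82, SD 2.80), a 314-fold range. No unit lay between 9.27 (SKM-1) and 11.33 (ML-2). The 10 units above this gap were ML-2, SH-2 at 11.35, OCI-AML5 at 11.58, EOL-1 at 11.70, OCI-AML3 at 12.14, MOLM-13 at 12.93, THP-1 at 13.02, PL-21 at 13.04, MV4-11 at 13.21 and OCI-AML2. The gap was absent on the second CCR2 probe set, 207794_at, where these 10 units were 6.00 (ML-2) to 10.71 and the other 20 were 4.19 to 7.91 (GF-D8). There 6 of the 20 exceeded ML-2, and 4 of the 10 lay below GF-D8. The 10 units comprised 3 of the 4 units grown with a cytokine, 5 of 23 without and 2 of 3 with no medium given. CCR1, which binds CCL3, CCL5 and CCL23, graded without such a break: its level (205098_at) was 5.76 in F-36P, 8.63 at the median and 12.87 in OCI-AML3 (mean 8.64, SD 1.85), a 138-fold range. CCR1 was above 6.73 in 24 of 30 units and CCR2 in 21. After OCI-AML3, CCR1 was highest in OCI-AML2 at 11.81, MV4-11 at 11.59, THP-1 at 10.62 and HNT-34 at 10.48; HNT-34, one of the lowest lines for CXCR4, was thus among the highest for CCR1.

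CX3CR1, the fractalkine receptor, was high in another subset of lines. Its level (205898_at) was 4.55 in SH-2, 6.70 at the median and 12.15 in SKM-1 (mean 7.64, SD 2.33), and 15 of 30 units exceeded 6.73. The 8 units above a gap from 8.82 (HEL) to 10.03 were MV4-11, MOLM-13, FKH-1, THP-1, OCI-AML2, SHI-1, GDM-1 and SKM-1. On the second probe set, 1568934_at, this gap was absent: the 8 units were 5.71 (MV4-11) to 8.82 and the other 22 were 4.26 to 7.57, and GF-D8, second lowest of the 32 lines on the probe set used, was the highest of the 22. Of the 8 units, MV4-11, MOLM-13, THP-1 and OCI-AML2 were also in the high CCR2 set, whereas SHI-1 had a CCR2 level of 6.07, FKH-1 one of 6.40, GDM-1 one of 6.81 and SKM-1 one of 9.27.

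CCR7 was low in most lines and high in a handful. Its level (206337_at) was 4.21 in MO7E, 5.87 at the median and 10.82 in GDM-1 (mean 6.38, SD 1.92), and 10 of 30 units exceeded 6.73. NOMO-1 at 10.67, HNT-34 at 10.15, ML-2 at 9.59 and OCI-M1 at 8.64 followed GDM-1. Of these 5, GDM-1, NOMO-1 and ML-2 were arrays with a GAPDH ratio above 2, a sign of RNA quality, while HNT-34 and OCI-M1 were not. CXCR3 had the smallest SD of the 6: its level (207681_at) was 4.41 in HEL, 6.16 at the median and 8.56 in SKM-1 (mean 6.28, SD 1.20), with 12 units above 6.73 and none above 10. On the probe sets used, no receptor exceeded 6.73 in F-36P and MOLM-16, and in GDM-1 all 6 did. On other probe sets GDM-1 had CCR2 at 4.19 (207794_at) and CXCR3 at 5.99 (217119_s_at), and MOLM-16 had CXCR3 at 6.95 (217119_s_at). Means of different genes are not set against each other as amounts, because probe sets differ in brightness.

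The arrays differed in ways that the labels do not give. The GAPDH ratio, the 3′ probe set's signal over the 5′ one's, was above 2 on 8 of 32 arrays (GDM-1, HL-60, ML-2, MOLM-13, NB-4, THP-1, NOMO-1 and GF-D8), and the median signal of NOMO-1 and GF-D8, 198.4 and 243.3, stood above the 68.2 to 115.4 of the other 30. Over 30 units, r of each receptor with the log2 ratio was 0.319 for CXCR4, 0.197 for CCR1, 0.050 for CCR2, 0.488 for CCR7, 0.060 for CX3CR1 and 0.405 for CXCR3; the part of the ratio in the levels was not tested. Of 6 genes of myeloid identity, PTPRC, the common leukocyte antigen CD45, was above 6.73 in all 30 units. SPI1 exceeded it in 27, ITGAM and ANPEP in 26 each, MPO in 20 and CD38 in 19. Of genes listed as markers of other cell types, 4 of 13 T and NK cell genes exceeded 10 in some unit (CD3D up to 13.38, NCAM1 13.08). So did 2 of 8 B cell genes (IGHM up to 12.93) and 5 of 13 stromal and epithelial genes (PECAM1 up to 14.02, EPCAM 13.26, KRT18 12.99). PECAM1 is also on the list of homing and adhesion genes used below, and it was above 6.73 in 27 units. CD79A and COL1A1 were above 6.73 in all 30 units, and KLRD1 was the only one of the T and NK cell, B cell, stromal and epithelial genes below it in all 30; the part of such markers in the receptor levels was not tested. A level is that of the whole culture, in which fewer cells that carry a receptor and less RNA per cell cannot be told apart. There is 1 array per line, so every p-value below measures the spread between these lines only.

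CXCR4 was read by 3 probe sets, and they ranked the lines alike. Over the 32 lines, r with the one used was 0.940 for 209201_x_at and 0.899 for 211919_s_at. The largest disagreement was in GF-D8, at 10.37 with 217028_at, 7.32 with 209201_x_at and 6.11 with 211919_s_at. The second probe set of CCR1 had r = 0.906 with the one used, that of CCR2 0.793, that of CXCR3 0.709 and that of CX3CR1 0.657, and CCR7 had 1 probe set only.

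Lines of 1 origin did not always share their receptor levels. CXCR4 was 10.20 in KG-1 and 6.95 in KG-1A, 9.49-fold apart, a difference that 2.26% of the genes tested equalled or passed in this pair. CCR1 and CCR2 went the other way, 3.45-fold and 3.19-fold higher in KG-1A. In HL-60 and PLB-985 the CXCR4 levels were 13.94 and 12.64, a difference that 16.5% of genes equalled or passed, but the direction turned on the other probe sets, to 10.93 and 11.57 with 209201_x_at and 10.46 and 11.61 with 211919_s_at. The GAPDH ratio was 7.08 on the HL-60 array and 0.93 on that of PLB-985, and its part in these differences was not tested. The CCR2 levels of HL-60 and PLB-985 were 9.50 and 7.96 on the probe set used. On 207794_at they were closer, at 5.66 and 5.36. With 1 array a line, none of these differences has a replicate check.

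CXCR4, CCR1 and CCR2 tended to be high in the same lines. Over 30 units r was 0.743 (rho 0.810) between CXCR4 and CCR2, 0.635 (0.684) between CXCR4 and CCR1 and 0.730 (0.729) between CCR1 and CCR2. For the other 12 of the 15 pairs r lay between -0.197 and 0.356. Over the 23 units of low GAPDH ratio the same 3 values were 0.775, 0.645 and 0.774, and over the 19 units grown in RPMI 1640 without a cytokine they were 0.621, 0.352 and 0.606. Without KMOE-2 and HNT-34, the 2 units farthest from the CXCR4 median, r of CXCR4 with CCR1 was 0.788.

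The units on either side of the CCR2 gap were also described apart. The 10 units above it had CXCR4 levels of 11.99 to 14.47 (median 13.57), and the 20 below it 4.12 to 13.29 (median 9.80). Within the 10 units r of CXCR4 with CCR2 was 0.060, and within the 20 it was 0.520. For CX3CR1, r with CCR2 was 0.946 within the 10 units, where it ran from 4.55 in SH-2 to 11.31 in OCI-AML2, and 0.098 within the 20. This division was made on the CCR2 values themselves.

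**Figure D2:**
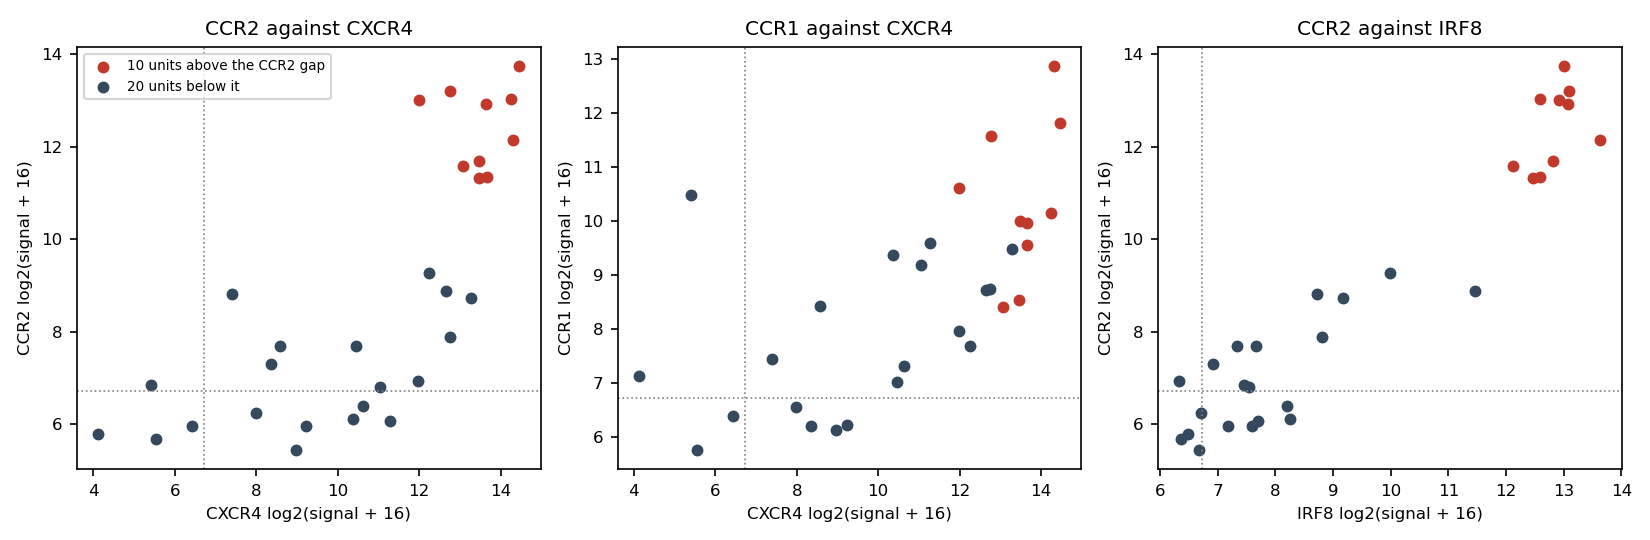
Level of CCR2 against CXCR4 (left), CCR1 against CXCR4 (middle) and CCR2 against IRF8 (right) in 30 units, as log2(signal + 16). Red points are the 10 units above the CCR2 gap, dark points the 20 below it, and dotted lines mark the level 6.73; the red points have CXCR4 levels of at least 11.99 and IRF8 levels of at least 12.13.

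The tested gene whose level was most like that of CCR2 was IRF8, a transcription factor of monocyte and dendritic cell development, with r = 0.953 over 30 units. IRF8 was 12.13 to 13.64 in the 10 units above the CCR2 gap and 6.33 to 11.46 in the 20 below it, so that the sets did not overlap. Besides CCR2, 0.0324% of the genes tested were higher in the 10 in this way; IRF8 was chosen for its likeness to the CCR2 values that divide the units, so this is a description only. Within each set r with CCR2 was lower, 0.451 above the gap and 0.765 below it. Next came LY86 (r = 0.919), LAMP5 (0.912), HAL, which encodes histidine ammonia lyase (0.866), and AFF3 (0.865), and the lowest was LINC01215 at -0.841. The median r over 15454 genes was -0.027, and the highest 5% began at 0.463. CXCR4 and CCR1 ranked 44 and 59 in likeness to CCR2.

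HAL was also the gene most like CXCR4 (r = 0.822), followed by RNASE2, an eosinophil granule ribonuclease (0.819), SERPINB8 (0.819), PIWIL4 (0.808) and KIAA0930 (0.797). The levels most opposite to CXCR4 were those of CAVIN2 (-0.811), EGFL7 (-0.800) and STON2 (-0.790). CCR2 ranked 25 and CCR1 135. The genes most like CCR1 were NLRP3, an inflammasome sensor (0.796), MOB3A (0.791) and AFF3 (0.788), and GOT1 was the most opposite (-0.799).

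For the other 3 receptors the most similar genes were less alike. CX3CR1 was followed by TNFAIP8L2 (r = 0.709), GPATCH2 (0.701) and CD70 (0.661), and CXCR3 by NICN1 (0.739), MED9 (0.726) and ABCA2 (0.724). For CCR7 the first was ULK3 (0.711), whose r was 0.394 over the 23 units of low GAPDH ratio, whereas that of KAZALD1 was 0.691 over all units and 0.693 over those 23.

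No receptor had a slope on PIM1 level that passed the test. CXCR4 was 4.12 in KMOE-2, the line of lowest PIM1 (7.16), and 6.42 in MOLM-16, the line of highest PIM1 (13.94), with lines of high CXCR4 at both low and high PIM1. In limma's moderated linear model over 30 units, CXCR4 changed by -0.35 ± 0.24 (SE) per log2 unit of PIM1 (95% interval -0.83 to 0.13, adjusted p = 0.823 over all genes tested). Its slope was -0.59 without KMOE-2, and it passed in none of the 30 omissions of 1 unit. The slopes of the other 5 lay between -0.28 for CCR2 and 0.06 for CCR7. Only 1 gene was called on PIM1, 0.00647% of those tested, and it was APOL4 (0.61 ± 0.083, adjusted p = 0.000311), chosen for mention after its value was seen; 1100 genes had an unadjusted p under 0.05.

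PIM2 and PIM3, the other targets of the inhibitors, gave slopes of opposite sign for CXCR4, neither of which passed. The CXCR4 slope on PIM2 was -1.21 ± 0.57 (adjusted p = 0.236), and its slope on PIM3 was 1.83 ± 0.85 (95% interval 0.11 to 3.56, adjusted p = 0.244). For CCR1 the slopes were -1.03 ± 0.33 on PIM2 (adjusted p = 0.0984) and 1.19 ± 0.53 on PIM3 (adjusted p = 0.230). The background of calls was 1.48% of genes for PIM2 (0.725% rose and 0.757% fell) and 0.569% for PIM3. In limma's fits 0 of 6 receptors were among them. An unadjusted p under 0.05 was found for 2 of 6 receptors on each. The same held for 2996 of all 15454 genes on PIM2 and 2838 on PIM3. These backgrounds moved with the processing: on PIM2 229 genes were called, 0 without OCI-M1 (limma, with 2749 at an unadjusted p under 0.05) and 4091 with median centring (3532 rose and 559 fell), and on PIM3 88 were called, 3 without NB-4, 418 without NOMO-1 and 46 with median centring (45 rose and 1 fell). PIM3 spanned a narrow range, from 9.85 (KG-1/KG-1A) up to 12.47 (NB-4).

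**Figure D3:**
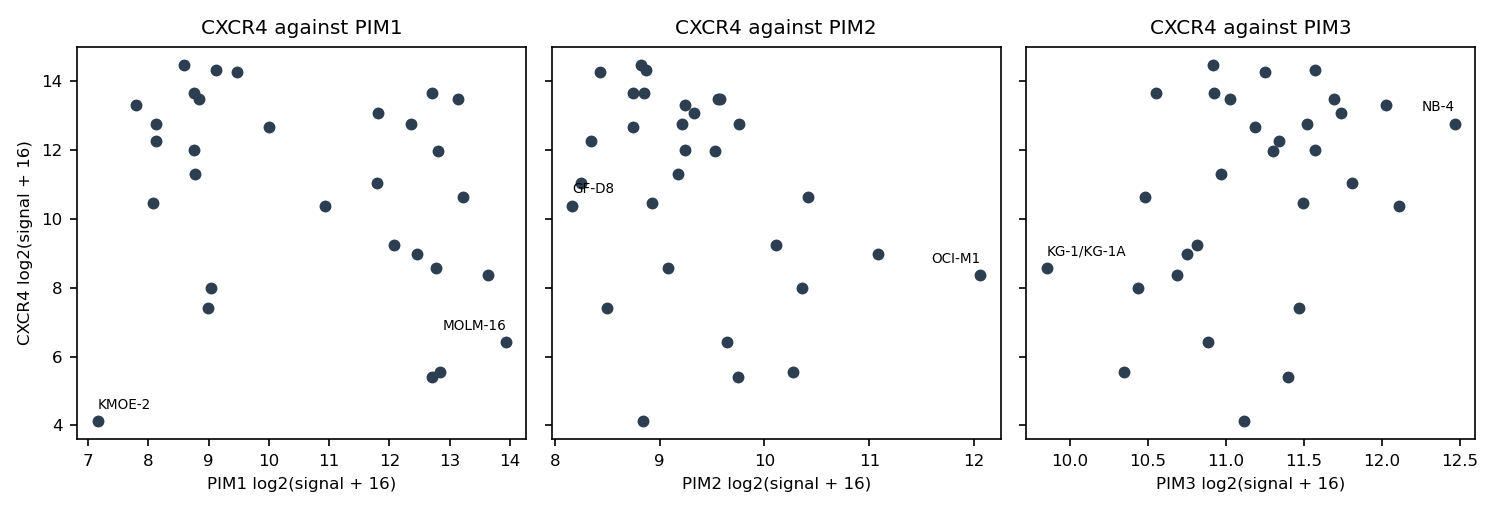
CXCR4 level against PIM1 (left), PIM2 (middle) and PIM3 (right) level in 30 units, all as log2(signal + 16), with the units of lowest and highest PIM level named. CXCR4 is 4.12 in KMOE-2 and 6.42 in MOLM-16, the units of lowest and highest PIM1, and the slopes of -0.35, -1.21 and 1.83 did not pass the test.

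Units grown with a cytokine did not differ from the others in any receptor by the test. In the 4 cytokine units CXCR4 was 5.54 in F-36P, 13.07 in OCI-AML5, 14.31 in OCI-AML3 and 14.47 in OCI-AML2, so that F-36P stood far below its group, and in the 23 units without cytokine it was 4.12 to 14.25 with a median of 11.05. The difference was 1.25 ± 1.48 (SE, limma, adjusted p = 0.934). CCR2 was 5.69, 11.58, 12.14 and 13.75 in the same order against 5.45 to 13.04, a difference of 2.56 ± 1.28 (adjusted p = 0.875), and CCR7 was 4.36 to 5.53 against 4.21 to 10.82, a difference of -1.98 ± 0.95 (adjusted p = 0.869). The comparison called 0 of 15455 genes (0%), with 878 at an unadjusted p under 0.05. With 1 unit left out, the CXCR4 difference ran from 0.38 (without OCI-AML2) to 3.36 (without F-36P) and that of CCR2 from 1.57 to 4.25 (the same omissions), and neither passed in any omission. The medium and the line cannot be told apart here.

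The CXCR4 level was next used as the predictor for all other genes. Of the 5 other receptors, 2 rose with CXCR4 and 3 did not pass, against a background of 2.99% of genes that rose and 2.64% that fell (5.63% called in all). CCR2 rose by 0.70 ± 0.11 per log2 unit of CXCR4 (adjusted p = 0.000289, rank 28 of 15454 genes by p) and CCR1 by 0.40 ± 0.087 (adjusted p = 0.00475). The slopes of CX3CR1, CXCR3 and CCR7 were 0.21 ± 0.13, 0.08 ± 0.073 and -0.0050 ± 0.12. Over the 19 units grown in RPMI 1640 without a cytokine, the slopes of CCR2 and CCR1 were 0.53 (adjusted p = 0.157) and 0.17 (adjusted p = 0.641), and limma called 0 genes, with 1523 at an unadjusted p under 0.05. CCR2 and CCR1 remained called on the other 2 CXCR4 probe sets.

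Other genes of the chemokine system were taken from lists. Of 18 other chemokine receptors 10 could be tested, and with CXCR4 level CXCR2, an interleukin-8 receptor of neutrophils, rose by 0.47 ± 0.077 (adjusted p = 0.000349) while CCRL2, an atypical receptor, fell by 0.29 on the log2 scale (adjusted p = 0.0471). That was 10% of the list each way, where 2.99% of all genes rose and 2.64% fell. The list's median slope was 0.025, against 0.002 over all genes. Over 30 units r of CCRL2 with CCR2 was -0.592.

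Of 17 ligands of the 6 receptors 9 could be tested, and 3 rose with CXCR4, namely CCL2 by 0.43 ± 0.073, CCL5 by 0.49 ± 0.11 and CCL23 by 0.33 ± 0.098 (adjusted p = 0.000437, 0.00480 and 0.0419). CCL2 is the ligand of CCR2, and CCL5 and CCL23 bind CCR1. The 3 that rose were 33.3% of the ligands tested, where 2.99% of all genes rose. The list's median slope was 0.028, against 0.002 over all genes. CXCL12, the ligand of CXCR4, was 6.06 to 8.49, with 14 of 30 units above 6.73, and had a slope of 0.05 ± 0.035 (adjusted p = 0.450). MIF, which also binds CXCR4, was 11.79 to 14.66 in all units and had a slope of -0.02 ± 0.039.

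Of 29 tested genes for G proteins, receptor kinases, arrestins and regulators 1 rose with CXCR4 and 0 fell in limma's fit (7 had an unadjusted p under 0.05), a share of 3.45% that is near the 2.99% of all genes that rose. It was PREX1, a Rac exchange factor downstream of Gβγ (0.39 ± 0.081, adjusted p = 0.00249); the list's median slope was 0.047. The GRK2 slope was 0.05 ± 0.040 and that of ARRB1 -0.16 ± 0.056 (adjusted p = 0.103). Of 23 genes for CXCR4 regulation and trafficking 4 rose and 1 fell, with a median of 0.033. These were 17.4% and 4.35% of the list, where 2.99% of all genes rose and 2.64% fell. CTSG (0.73 ± 0.13, adjusted p = 0.000833) and ELANE (0.89 ± 0.20, adjusted p = 0.00666), whose granule proteases are known to cleave CXCR4, were among the 4, as were the myeloid transcription factors CEBPA (0.56 ± 0.12) and GFI1 (0.38 ± 0.095). STAM, an endosomal sorting gene, fell by 0.19 on the log2 scale (adjusted p = 0.0110). Of 13 homing and adhesion genes 2 rose, ITGAL (0.64 ± 0.099, adjusted p = 0.000199), the LFA-1 integrin chain, and S1PR3 (0.59 ± 0.10, adjusted p = 0.000469), while ITGA4 had a slope of -0.01 ± 0.068.

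Markers of cell lineage moved with CXCR4 as well. Of 18 monocyte and macrophage genes tested 7 rose and 0 fell (limma; 12 had an unadjusted p under 0.05), with a median slope of 0.26, and the 7 included S100A8 (0.87 ± 0.16), LILRB1 (0.45 ± 0.084) and CLEC12A (0.49 ± 0.11). Of 10 granule genes, a list that shares CTSG and ELANE with the one on CXCR4 regulation, 5 rose, among them AZU1 (0.98 ± 0.14) and PRTN3 (0.96 ± 0.16). Of 14 erythroid genes 6 fell, among them TAL1 (-0.70 ± 0.12), RHAG (-0.56 ± 0.10) and GATA1 (-0.46 ± 0.11), and of 12 stem and progenitor genes 3 fell, MECOM, GATA2 and CD34 (-0.51 ± 0.12, -0.26 ± 0.074 and -0.45 ± 0.13). Of 10 T and NK cell genes tested only 1 rose, NCAM1 (0.41 ± 0.096), and 0 fell, with 4 of the 10 slopes negative. Of all genes tested 2.99% rose and 2.64% fell.

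The mean level of the monocyte list, and of the erythroid list, was also used as a score. For CXCR4, its slope on a score is the same relation as the list counts above, read the other way, and not a separate result. On the monocyte score 4 of 6 receptors rose and 0 fell, where 6.8% of genes rose, 4.31% fell and 11.1% were called in all. CXCR4 rose by 1.72 ± 0.28 per unit of score (adjusted p = 0.000169), CCR2 by 1.47 ± 0.29 (adjusted p = 0.00132) and CCR1 by 0.99 ± 0.19 (adjusted p = 0.00117). Over the 19 units grown in RPMI 1640 without a cytokine these 3 calls were lost, with slopes of 1.31, 1.08 and 0.55 (adjusted p = 0.0742, 0.0951 and 0.159). CX3CR1 rose by 0.86 ± 0.29 (adjusted p = 0.0485), a call that was lost in 21 of 30 omissions of 1 unit, with adjusted p up to 0.0819. CCR7 (0.20 ± 0.27) and CXCR3 (0.22 ± 0.17) did not pass.

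On the erythroid score 3 of 6 receptors fell and 0 rose, where 4.25% of genes fell, 6.24% rose and 10.5% were called in all. CXCR4 fell by 1.26 on the log2 scale per unit of score (SE 0.28, adjusted p = 0.00230), CCR2 by 1.28 (SE 0.25, adjusted p = 0.000654) and CCR1 by 0.89 (SE 0.16, adjusted p = 0.000222). Over the 19 units in RPMI 1640 the slopes of CXCR4 and CCR1 were -0.81 and -0.68 and did not pass (adjusted p = 0.510 and 0.0679), and on probe set 207794_at that of CCR2 was -0.51 over 30 units (adjusted p = 0.0592). Both scores were themselves related, with r = -0.626.

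**Figure D4:**
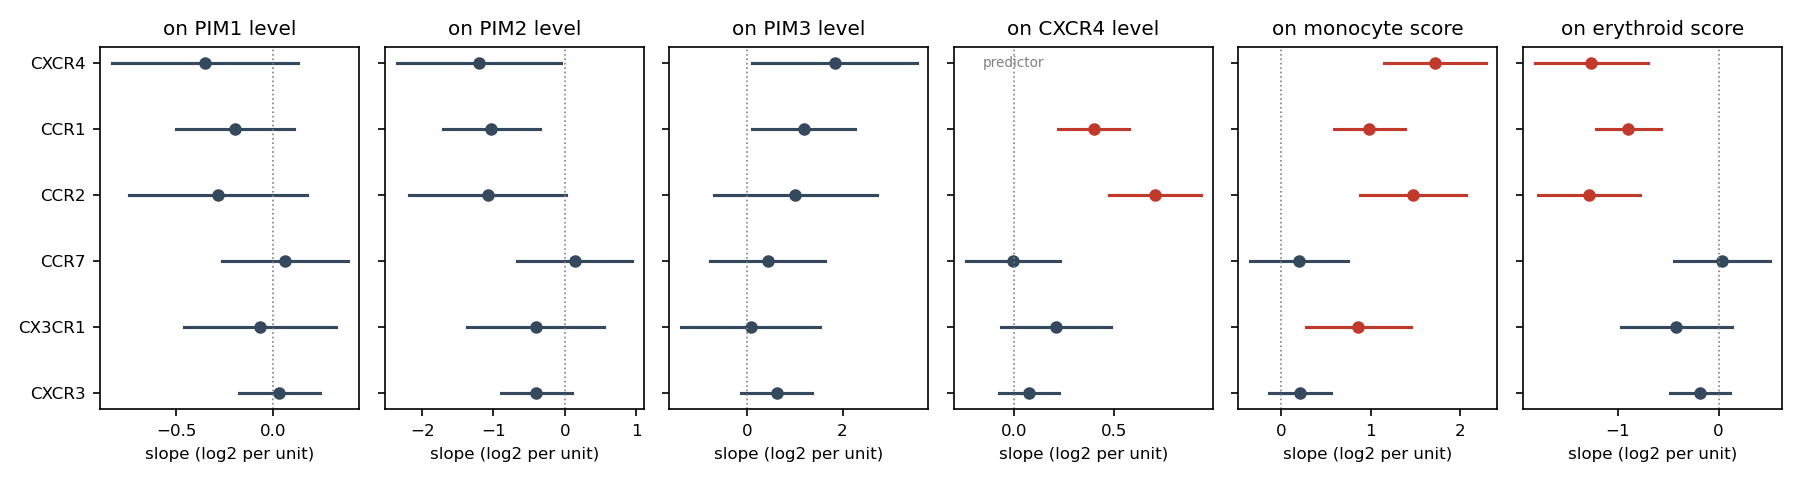
Slope of each receptor (rows) on 6 predictors (panels), in log2 units per log2 unit of gene level or per unit of score, with 95% intervals; red marks adjusted p under 0.05 over all genes tested in limma, n = 30 units. CXCR4, CCR1 and CCR2 rise with the monocyte score and fall with the erythroid score, and none of the 6 passes on PIM1, PIM2 or PIM3.

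The erythroid score fell into separate sets, with no unit between 0.855 and 2.12. In the 6 units above, SET2, OCI-M2, MOLM-16, HEL, F-36P and OCI-M1, CCR1 was 5.76 to 6.55 (median 6.21), below 6.73 in all 6. In the other 24 units CCR1 was 7.01 to 12.87 (median 9.28), above 6.73 in all 24, so that the sets did not overlap on this probe set. Of the 15441 genes tested outside the erythroid list 0.35% did not overlap between the sets, and 0.0907% were lower in the 6 in this way. On the second CCR1 probe set, 205099_s_at, the sets did overlap, at 4.41 to 5.81 in the 6 and 4.65 to 11.37 in the 24, where KMOE-2, ME-1 and FKH-1 lay below the highest of the 6 and 17 units exceeded 6.73. CXCR4 was 5.54 to 9.23 (median 8.17) in the 6 and 4.12 to 14.47 (median 12.45) in the 24, and CCR2 exceeded 6.73 in 1 of the 6, OCI-M1, and in 20 of the 24. Within the 24 units r with the monocyte score was 0.646 for CXCR4, 0.494 for CCR1 and 0.544 for CCR2, and r of CXCR4 was 0.673 with CCR2 and 0.456 with CCR1.

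**Figure D5:**
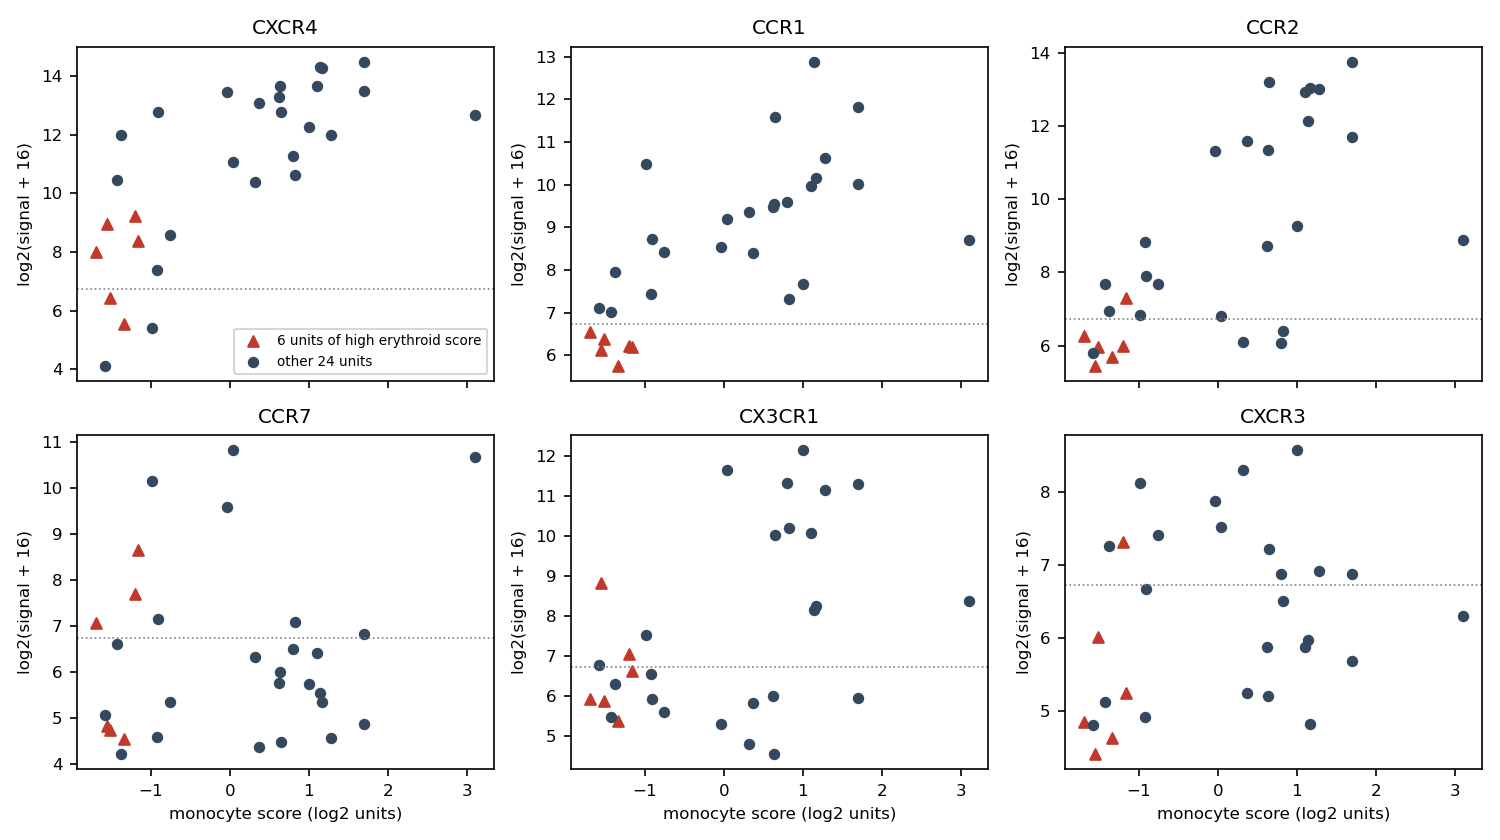
Level of each receptor, as log2(signal + 16), against the monocyte score in 30 units, with the 6 units of high erythroid score as red triangles and the other 24 as dark points; dotted lines mark the level 6.73. On the CCR1 probe set plotted, 205098_at, the level is at most 6.55 in the 6 units and at least 7.01 in the 24, whereas on 205099_s_at the 2 sets overlap.

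With either score added to the model, a choice made after the data were seen, neither CCR1 nor CCR2 passed on CXCR4. With the monocyte score as a covariate, the slopes on CXCR4 were 0.52 ± 0.16 for CCR2 (adjusted p = 0.361) and 0.19 ± 0.12 for CCR1 (adjusted p = 0.630), and 1 gene was called. With the erythroid score they were 0.50 ± 0.13 (adjusted p = 0.164) and 0.19 ± 0.097 (adjusted p = 0.611), with 10 genes called. Without a covariate they were 0.70 ± 0.11 for CCR2 and 0.40 ± 0.087 for CCR1, so the slopes were smaller but kept their sign. The slope of CXCR4 on the monocyte score passed with the erythroid score as covariate, while those of CCR2 (adjusted p = 0.0888) and CCR1 (adjusted p = 0.0960) did not.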

How the data were processed

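The authors deposited 1 signal intensity per probe set and array on a linear scale, made with Affymetrix Expression Console per the submitters' processing notes; background correction and version are not given in the sources used here. The deposited intensity values have a 2% trimmed mean of 499.9 to 500.0 on every array, so they were scaled per array. They were transformed to log2(signal + 16). Of 54675 probe sets 41091 had 1 gene symbol. Genes above 6.73 in at least 3 of 30 units were tested in limma 3.58.1 (R 4.3.3; lmFit, eBayes with trend) with Benjamini-Hochberg adjustment over all genes tested, at 0.05. The fit was tested on simulated data of independent genes with large set slopes, which checks the code and not the power in these data. Scores are mean centred levels of the tested genes of a list, which were left out of that fit. Figures used Python 3.11.15 and matplotlib 3.10.9. Named genes were the 6 receptors and the PIM genes, the 5 most and 3 least similar genes to each receptor, the largest slopes on CXCR4, and of each list up to 4 passing genes by p and the 3 of largest SD; further list members were named for their role after their values were seen. The receptors, lists and tests were chosen with earlier results of these data known. Alternatives were the pseudocount, scaling, filter, probe set, sublines, GAPDH ratio, medium and each unit left out. The number of arrays limits the precision.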

Additional observations from a re-analysis of the deposited data

Results flagged for a closer look

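CXCR4 in F-36P, at 5.54, lay far below the 13.07 to 14.47 of the other 3 lines grown with a cytokine. Its gap to the nearest of them was 0.843 of the group's whole range (n = 4), above the limit that Dixon's test sets at 95%. Each of the 6 receptors was examined this way, and chance passes this limit in about 1 of 20 groups. F-36P is also 1 of the 6 units of high erythroid score, and it was grown with IL-3 where the others had GM-CSF or SCF; the part of either was not tested.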

How the results depend on the processing

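CXCR4, CCR1 and CCR2 kept the direction of their slopes on CXCR4, the monocyte score and the erythroid score in every alternative run, and kept their calls in every omission of 1 unit. The calls were lost in some alternatives. Over the 19 units grown in RPMI 1640 without a cytokine, CCR1 had a slope of 0.17 and CCR2 of 0.53 on CXCR4, and on the monocyte score CXCR4 had 1.31, CCR1 0.55, CCR2 1.08 and CX3CR1 0.61, none passing, with fewer units in the fit. On the erythroid score CXCR4 (-0.81) and CCR1 (-0.68) did not pass there, while CCR2 did. With the monocyte score as a covariate, added after the data were seen, CCR1 (0.19) and CCR2 (0.52) did not pass on CXCR4, nor did CXCR4 (-0.55), CCR1 (-0.60) and CCR2 (-0.80) on the erythroid score. With the erythroid score as a covariate, also added, CCR1 (0.19) and CCR2 (0.50) did not pass on CXCR4, nor CCR1 (0.55), CCR2 (0.89) and CX3CR1 (0.92) on the monocyte score. On probe set 207794_at CCR2 had a slope of -0.51 on the erythroid score and did not pass. CX3CR1 on the monocyte score also missed the threshold with a pseudocount of 1 (0.76), quantile normalization (0.86), median centring (0.93), no filter (0.90), the GAPDH ratio as a covariate (0.89) and without the arrays of high ratio (0.88), and ranged from 0.76 to 1.01 with 1 unit left out; the cause was not tested.

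Some slopes changed sign, and none of them passed in either direction. Not all were near 0 with the main settings. There CXCR3 on PIM3 was 0.62 ± 0.37, CCR7 on PIM3 0.43 ± 0.59 and CX3CR1 on the erythroid score -0.42 ± 0.27. For CCR7 on CXCR4 the value was 0.017 with a pseudocount of 1, 0.00058 with quantile normalization, 0.0025 over 32 lines, 0.058 in RPMI 1640 and 0.011 with the erythroid score. On the erythroid score CCR7 was -0.037 with quantile normalization, -0.046 with median centring, -0.0040 with the mean of probe sets, -0.031 with the probe set of largest SD and -0.044 in RPMI 1640. On PIM3 it was -0.11 with median centring, -0.87 with the GAPDH covariate and -0.51 without the arrays of high ratio. On PIM2 it was -0.12 in RPMI 1640, and on the monocyte score -0.11 without NOMO-1 and GF-D8 and -0.12 without the arrays of high ratio. CX3CR1 on PIM3 was -0.061 with quantile normalization, -0.11 with the GAPDH covariate and -0.44 in RPMI 1640, on PIM1 0.049 in RPMI 1640, on CXCR4 -0.14 and on the erythroid score 0.078 with the monocyte covariate, and its cytokine difference was -0.094 on 1568934_at. CXCR3 was -0.010 on CXCR4 read by 211919_s_at, and on 217119_s_at it was -0.14 on PIM3 and 0.0098 on the erythroid score. With 1 unit left out, CCR7 ranged from -0.050 to 0.089 on CXCR4, -0.047 to 0.12 on the erythroid score, -0.11 to 0.29 on the monocyte score and -0.23 to 0.40 on PIM2. CX3CR1 ranged from -0.13 to 0.021 on PIM1, -0.27 to 0.39 on PIM3 and -1.04 to 0.94 in the cytokine difference, and CXCR3 from -0.0077 to 0.081 on PIM1.

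Counts of all genes called moved more. On PIM1 they were 3 with a pseudocount of 1, quantile normalization or the probe set of largest SD, 2 with median centring, the mean of probe sets, 32 lines, and without NOMO-1 and GF-D8 or the arrays of high ratio, and 0 in RPMI 1640. On PIM2 they were 1737 with quantile normalization, 4091 with median centring (3532 rose and 559 fell), 123 without the arrays of high ratio, 16 with the GAPDH covariate and 0 in RPMI 1640. On PIM3 they were 1056, 46 (45 rose and 1 fell), 22 without a filter, 32 with the mean of probe sets, 241 with the largest SD, 540 over 32 lines, 31 without NOMO-1 and GF-D8, and 0 with the GAPDH covariate, without the arrays of high ratio and in RPMI 1640. On CXCR4 they were 519 without the arrays of high ratio, 0 in RPMI 1640, and 1 and 10 with the monocyte and erythroid covariates. On the monocyte score they were 907 with median centring, 164 in RPMI 1640 and 959 with the erythroid covariate, and on the erythroid score 320 in RPMI 1640 and 985 with the monocyte covariate. The cytokine comparison called 1 with the largest SD and 4 without the arrays of high ratio. With 1 unit left out, counts were 1 to 3 on PIM1, 0 (OCI-M1) to 404 (KMOE-2) on PIM2, 3 (NB-4) to 418 (NOMO-1) on PIM3, 672 to 1051 on CXCR4, 1178 (NOMO-1) to 2142 on the monocyte score, 1295 to 1842 on the erythroid score and 0 to 1 for the cytokine comparison. No paired analysis was possible because each line has only 1 array, and the labels give no replicate numbers. Signal over background limits CXCR3 and CCR7, which lay below 6.73 in 18 and 20 of 30 units; without the arrays of high ratio CCR7 exceeded the median in 6 units.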
